A study of Danio rerio with 6 samples.

Results

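The genes described here are the heat shock factors and the heat shock proteins (HSPs) of zebrafish, 39 of the 36155 genes counted in tails of *prpf31*-/- embryos and their siblings. They were chosen by symbol: names that start with hsf or hsp followed by a number, with hspa, hspb, hspd, hspe or hsph, or with serpinh1, and without *hspg2*, which is a matrix proteoglycan. RNA came from the body without the head, called the tail, at 36 hours post fertilization (hpf), and included the AGM and the CHT, the sites of embryonic blood stem cells. The *prpf31*-/- group and the sibling group (*prpf31*+/+) had 3 libraries each, all of strain AB* and all from crosses of *prpf31*+/- parents. Heads were used for genotyping and tails of like genotype were pooled, so each library is an average over muscle, skin, notochord, spinal cord, vessels and blood, and fewer cells of a type cannot be told apart from less RNA per cell. The mutant is a CRISPR/Cas9 line of *prpf31*, a factor of the U4/U6.U5 tri-snRNP in the spliceosome, and since the sources do not tell whether each library had its own clutch, p values measure only the spread between these libraries, which may be technical.

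Heat shock proteins are chaperones: they hold, fold or refold other proteins. HSP90 and HSP70 use ATP and work with co-chaperones, the HSP110 proteins exchange the nucleotide of HSP70, the small HSPs hold unfolded proteins without ATP, and the chaperonin of mitochondria folds imported proteins inside a closed chamber. Heat shock factor 1 is the transcription factor that raises many of these genes when unfolded protein builds up. The ER and the mitochondria have chaperones of their own, some of which also answer to other signals. In zebrafish tails the chaperone demand of skeletal muscle is also well known, since myosin is folded by an HSP90 paralog together with Unc45b.

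Total counts ran from 21809870 to 23789933 per library, and the 39 genes took 0.520%, 0.524% and 0.531% of them in *prpf31*-/- libraries, against 0.505%, 0.485% and 0.477% in siblings. *prpf31* itself (chromosome 16 of GRCz11, 32082359 to 32090672) had 475, 576 and 535 counts in *prpf31*-/- libraries, against 844, 850 and 854 in siblings (log2 fold change −0.66, SE 0.0842, adjusted p = 0.00104). Levels are given in CPM, counts scaled to the TMM-normalized library total, and log2 fold changes are *prpf31*-/- over sibling from edgeR's quasi-likelihood test, with p values adjusted over 21876 genes and a threshold of 0.05. Markers of the tail were present: genes of fast muscle summed to 87070 to 103000 CPM in *prpf31*-/- libraries, against 95750 to 98170 CPM in siblings, and none of the 16 passed the test. Posterior hox genes summed to 91.2 to 105 CPM in *prpf31*-/- libraries, against 116 to 141 CPM in siblings. Of these 7 genes, 2 were lower, beside 4.49% of all genes tested. Their median log2 fold change was −0.46, against −0.0048 over all genes. A difference in posterior tissue between the groups was not tested. The brain list stayed at or below 27.7 CPM in every library. The libraries *prpf31*-/- replicate 1 and sibling replicate 3 stood apart by genes of lens and eye (59.2 and 47.8 CPM in sum, against at most 9.6 CPM in the other 4), and the same libraries were highest in the inducible HSP70 genes.

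Of the 39 genes, 36 had enough counts for the test, and 13 of these were higher and 1 was lower in *prpf31*-/- tails. Among all genes tested, 5.58% were called higher and 4.49% lower, 10.1% in all. The median log2 fold change was 0.42 over the 36 heat shock genes and −0.0048 over all genes, and 23 of the 36 were positive, against 49.3% of all genes. The *prpf31*-/- libraries lay wholly above the sibling libraries for 17 of the 36 and wholly below for 4, while over all genes 15.2% were wholly above and 30.6% were apart in either direction. A further 6 genes had an unadjusted p under 0.05 without passing the adjusted threshold, and they went in both directions. *hspa4l*, *hsph1* and *hspbp1* had positive log2 fold changes, and *hspbap1*, *hsp90ab1* and *hspb6* had negative ones. The share of all genes at that unadjusted level was not determined, so the count of 6 cannot be read as a result about the heat shock genes. The genes that were higher were *hsf1*, the HSP90 genes *hsp90aa1.1* and *hsp90aa1.2*, the small HSPs *hspb1*, *hspb8*, *hspb9* and *hspb11*, the HSP110 gene *hspa4a*, the mitochondrial chaperones *hspd1*, *hspe1* and *hspa9*, and the collagen chaperones *serpinh1a* and *serpinh1b*. The one that was lower was *hspa12b*. By compartment, 7 of 22 cytosolic genes, 2 of 5 ER genes and all 3 mitochondrial genes were higher, with median log2 fold changes of 0.47, −0.0022 and 0.50. Without the libraries *prpf31*-/- replicate 1 and sibling replicate 3 together, 12 were called higher, 11 of them from the 13, and none was called lower. In that fit, 1021 genes were called higher and 975 lower over all genes.

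**Figure D1:**
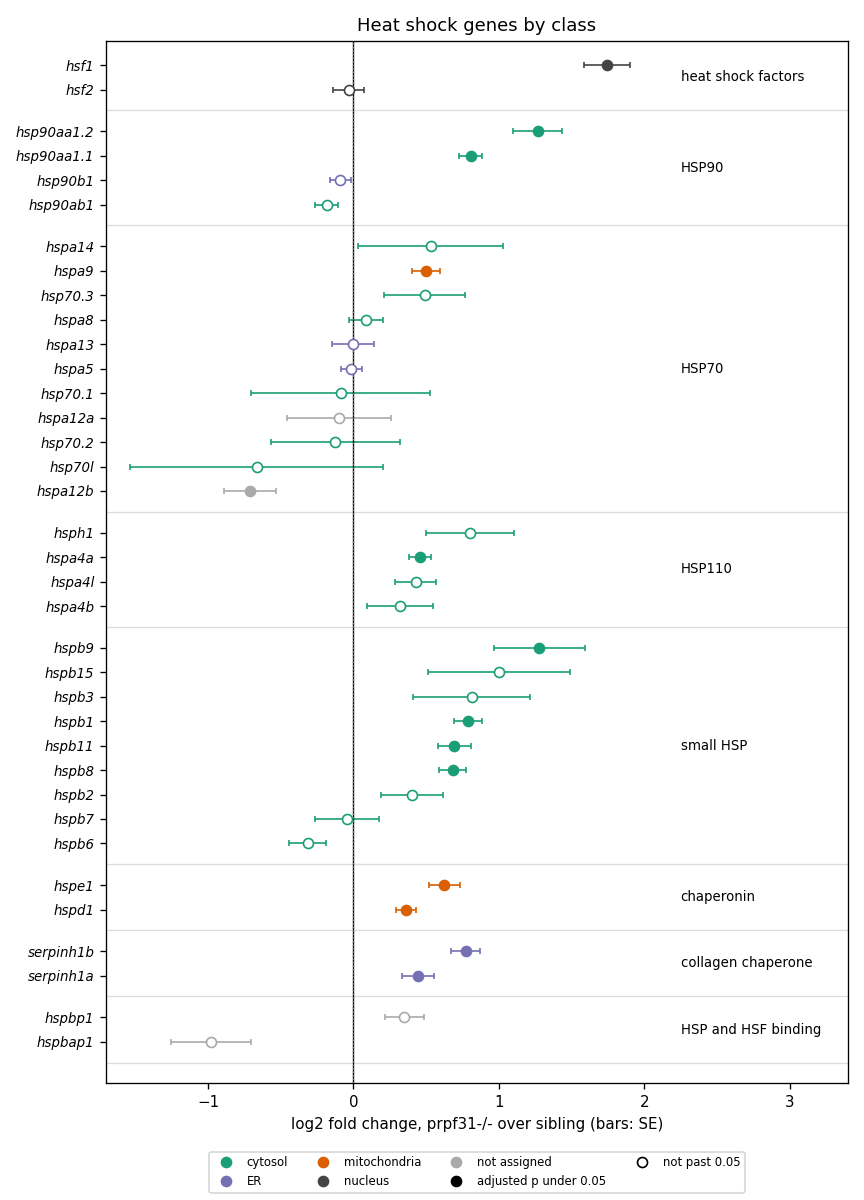
The log2 fold change of each of the 36 tested heat shock genes, *prpf31*-/- over sibling, is plotted with its SE, by class; colours give the compartment, filled points passed an adjusted p of 0.05, and the dotted line is the median of all genes tested. *hsf1* stands farthest to the right at 1.74, the mitochondrial genes all lie to the right of 0, and the HSP70 genes scatter on both sides.

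*hsf1* (ENSDARG00000008818, chromosome 19, 3056450 to 3082268, plus strand), the main factor of the heat shock response, had the largest fold change of the 36. Its level was 35.1, 54.2 and 51.5 CPM in *prpf31*-/- libraries, against 15.1, 13.1 and 13.9 CPM in siblings (712, 1238 and 1199 counts, against 347, 292 and 308). The lowest *prpf31*-/- library was thus above the highest sibling library by more than the whole spread of the siblings. The difference was 3.34-fold, 1.74 on the log2 scale (SE 0.158, adjusted p = 0.000121). *hsf2*, a factor active in development, had 16.7, 14.9 and 16.9 CPM in *prpf31*-/- libraries, against 16.4, 17.3 and 15.8 CPM in siblings (−0.03, SE 0.107, adjusted p = 0.897). Within a library, *hsf1* had 2.09, 3.65 and 3.05 counts per count of *hsf2* in *prpf31*-/- tails, against 0.923, 0.760 and 0.875 in siblings. So *hsf1* outnumbered *hsf2* in each mutant library and was outnumbered by it in each sibling library. *hsf4*, which in mammals acts in the lens, and *hsf5* stayed at or below 0.215 CPM in every library and were not tested, nor was *hsf2bp*, whose product acts in meiosis in the mouse.

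HSP90 is the most abundant class. The constitutive cytosolic gene *hsp90ab1* had 2274, 2250 and 2384 CPM in *prpf31*-/- libraries, against 2764, 2625 and 2459 CPM in siblings. The groups did not overlap, as 30.6% of all genes tested did not, and the difference did not pass the test (−0.18, SE 0.0789, adjusted p = 0.180). *hsp90aa1.1* (ENSDARG00000010478, chromosome 20, 53982317 to 54012043), which folds muscle myosin in zebrafish, had 698, 646 and 659 CPM in *prpf31*-/- libraries, against 358, 374 and 414 CPM in siblings. All mutant libraries were above all sibling libraries, as for 15.2% of all genes tested, at 0.81 on the log2 scale (SE 0.0801, adjusted p = 0.000218). Its tandem copy *hsp90aa1.2* (ENSDARG00000024746, 53967350 to 53981626) had 114, 104 and 102 CPM in *prpf31*-/- libraries, against 39.3, 34.5 and 58.8 CPM in siblings (1.27, SE 0.167, adjusted p = 0.00131). The copies lie on the minus strand with 690 bp and no gene between them. They are similar in sequence, so how reads were split between them is uncertain, which touches their ratio more than their sum. *hsp90b1*, the HSP90 of the ER, had 109, 102 and 100.1 CPM in *prpf31*-/- libraries, against 109, 116 and 106 CPM in siblings (−0.09, SE 0.0729, adjusted p = 0.502).

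The sum over the 4 HSP90 genes was 3180 ± 72.6 CPM in *prpf31*-/- libraries and 3152 ± 116 CPM in siblings (SD, n = 3 each), and the groups overlapped. On the FPKM scale, which divides by gene length and uses the authors' library totals, the sum was 723 ± 16.2 FPKM in *prpf31*-/- libraries and 659 ± 14.7 FPKM in siblings (SD, n = 3 each), and the groups did not overlap. So the CPM sums did not differ beyond their spread, while the FPKM sums were higher in *prpf31*-/- libraries. FPKM divides by a length of 5522 bp for *hsp90ab1* and 2804 bp for *hsp90aa1.1*, which gives a count of *hsp90aa1.1* more weight. On the same FPKM scale, *hsp90aa1.1* made up 33.8%, 32.5% and 31.9% of HSP90 in *prpf31*-/- libraries, against 18.8%, 20.1% and 22.7% in siblings. The share of *hsp90aa1.2* was 5.04%, 4.77% and 4.51% in *prpf31*-/- libraries, against 1.89%, 1.70% and 2.95% in siblings. The share of *hsp90ab1* was 55.9%, 57.5% and 58.6% in *prpf31*-/- libraries, against 73.6%, 71.8% and 68.5% in siblings. In each of these 3 shares the groups did not overlap. Because shares add to a whole, a gain by one paralog lowers the others. A ratio within a library moves with its denominator as well, and *hsp90ab1* was at −0.18 on the log2 scale. With that limit, *hsp90aa1.1* had 0.307, 0.287 and 0.276 counts per count of *hsp90ab1* in *prpf31*-/- libraries, against 0.130, 0.142 and 0.168 in siblings.

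**Figure D2:**
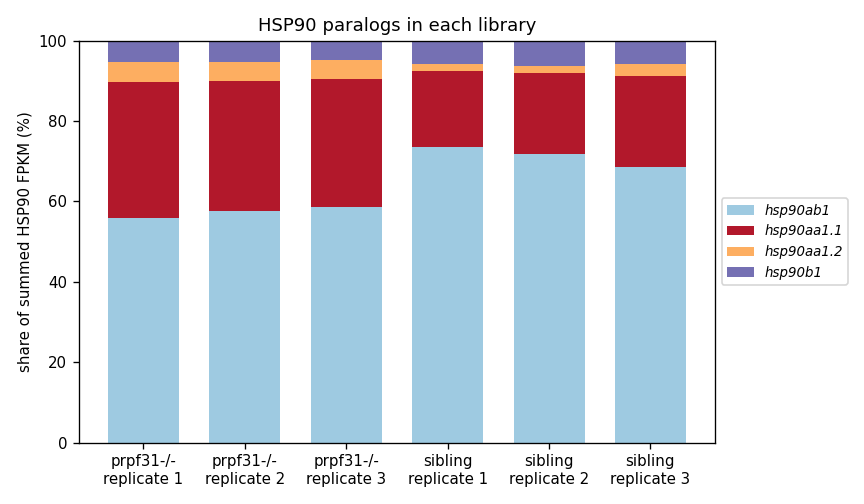
Bars give, for each of the 6 libraries, the share of the summed FPKM of the HSP90 genes (in %) that belongs to each paralog, *prpf31*-/- libraries at the left. The *hsp90aa1.1* part is 31.9% to 33.8% of the bar in *prpf31*-/- libraries and 18.8% to 22.7% in siblings.

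Of the 11 genes of the HSP70 class, 1 was higher and 1 was lower, beside 5.58% higher and 4.49% lower among all genes tested, and the median log2 fold change was −0.01. *hspa8*, a constitutive cytosolic HSP70, had 71.2, 54.9 and 58.6 CPM in *prpf31*-/- libraries, against 62.7, 61.1 and 50.2 CPM in siblings (0.09, SE 0.118, adjusted p = 0.713). Its span overlaps that of *jhy* on the same strand by 2806 bp, so its reads there may have been dropped. *jhy* had 10 to 17 counts in *prpf31*-/- libraries, against 13 to 20 in siblings. The effect of this overlap on the *hspa8* values was not tested. *hspa5*, the BiP chaperone of the ER, had 286, 274 and 261 CPM in *prpf31*-/- libraries, against 289, 265 and 275 CPM in siblings (−0.01, SE 0.0720, adjusted p = 0.936). *hspa13*, the other HSP70 of the ER, was at −0.00 (SE 0.146). The gene that was higher was *hspa9*, mortalin, the HSP70 that pulls proteins into mitochondria. It had 269, 250 and 319 CPM in *prpf31*-/- libraries, against 202, 203 and 189 CPM in siblings (0.50, SE 0.0950, adjusted p = 0.00973). *hspa12b*, an atypical HSP70 known from endothelium, was lower, with 3.55, 4.07 and 4.34 CPM in *prpf31*-/- libraries, against 6.63, 5.66 and 7.28 CPM in siblings (−0.71, SE 0.181, adjusted p = 0.0354). That call rests on all 6 libraries: leaving out any 1 of them gave an adjusted p between 0.0554 and 0.116. *hspa12a* (−0.10, SE 0.357) and *hspa14* (0.53, SE 0.497, under 1.29 CPM in every library) did not pass. A constitutive HSP70 outside the naming rule, *hsc70*, was looked at after its values were seen: 132, 130 and 139 CPM in *prpf31*-/- libraries, against 79.1, 66.8 and 75.2 CPM in siblings (0.86, SE 0.0815, adjusted p = 0.000161).

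The heat-inducible HSP70 genes did not separate the genotypes. *hsp70l*, which zebrafish embryos are known to express in the lens, had 21.7, 4.43 and 4.03 CPM in *prpf31*-/- libraries, against 3.27, 5.35 and 38.9 CPM in siblings (−0.66, SE 0.872, adjusted p = 0.698). *hsp70.1* had 10.5, 5.65 and 3.69 CPM in *prpf31*-/- libraries, against 2.53, 3.19 and 15.3 CPM in siblings (−0.09, SE 0.617). *hsp70.2* had 12.4, 9.81 and 6.22 CPM in *prpf31*-/- libraries, against 4.67, 7.23 and 19.1 CPM in siblings (−0.12, SE 0.443). One library of each genotype, *prpf31*-/- replicate 1 and sibling replicate 3, was above the other 4 in all of these. *hsp70.3* showed the same order, with 42.2, 31.5 and 24.7 CPM in *prpf31*-/- libraries, against 15.9, 19.2 and 35.0 CPM in siblings (0.49, SE 0.276, adjusted p = 0.313). These 4 were the only tested heat shock genes with both libraries on top, as 5.05% of all genes tested were.

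The lens and eye markers moved with them. Of 9 such genes with counts, 6 had the same 2 libraries on top, and their sum was 59.2, 4.29 and 7.47 CPM in *prpf31*-/- libraries, against 9.60, 3.19 and 47.8 CPM in siblings. The crystallin gene *cryba4* alone had 21.96, 1.62 and 3.18 CPM in *prpf31*-/- libraries, against 3.80, 1.66 and 18.8 CPM in siblings. Of 7 brain genes, 2 showed that order, and the brain sum was 21.4 to 24.0 CPM in *prpf31*-/- libraries and 23.0 to 27.7 CPM in siblings. The part of lens RNA in the HSP70 values was not tested. Of 13 immediate early genes, which respond within minutes to handling and injury, 2 were higher (*fosab* and *fosl1a*) and 2 were lower (*jun* and *btg2*). Among all genes tested, 5.58% were higher and 4.49% lower. Sibling replicate 3 was the highest sibling library for *hsp70.3*, so leaving it out raises the fold change. Without it alone, *hsp70.3* was higher in *prpf31*-/- tails (0.90, adjusted p = 0.0432). Without any other single library, *hsp70.3* was at 0.26 to 0.66 and did not pass (adjusted p of 0.252 to 0.664). With *prpf31*-/- replicate 1 and sibling replicate 3 both left out, a step chosen after the data were seen, *hsp70.3* was higher as well (0.67, adjusted p = 0.0320). In that fit *hsp70.1* was at 0.69 (adjusted p = 0.177), *hsp70.2* at 0.42 (adjusted p = 0.399) and *hsp70l* at −0.04. These genes are near copies of each other, so their reads may have been split or dropped. *hsp70.1*, *hsp70.2* and *hsp70.3* also lie within the span of *atp2a1* on chromosome 3, a muscle calcium pump with 330022 to 396467 counts in *prpf31*-/- libraries, against 373925 to 417971 in siblings, and the library kit does not mark strand.

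**Figure D3:**
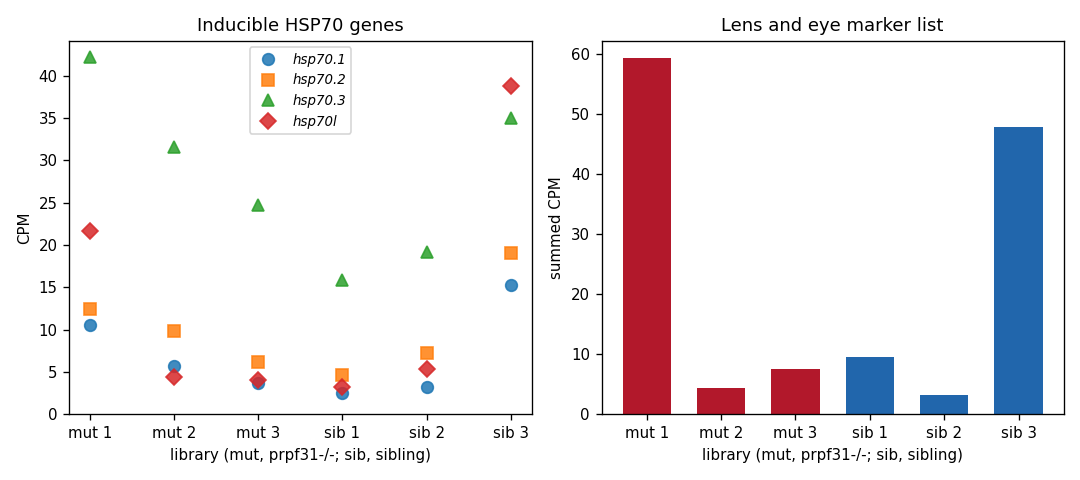
The left panel gives the CPM of the inducible HSP70 genes and the right panel the summed CPM of the lens and eye markers in each of the 6 libraries, *prpf31*-/- at the left of each panel. *prpf31*-/- replicate 1 and sibling replicate 3 are highest in the marker sum, at 59.2 and 47.8 CPM, and highest in each HSP70 gene drawn.

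The HSP110 genes, which recharge HSP70, all had positive log2 fold changes, as 49.3% of all genes tested had. Of the 4, 1 passed as higher, beside 5.58% of all genes tested. *hspa4a* had 124, 113 and 118 CPM in *prpf31*-/- libraries, against 90.9, 83.7 and 84.1 CPM in siblings (0.46, SE 0.0741, adjusted p = 0.00445). Its span overlaps that of *zcchc10* on the other strand by 237 bp. *zcchc10* had 378 to 402 counts in *prpf31*-/- libraries, against 301 to 339 in siblings. The part of reads from this overlap in the *hspa4a* values was not tested. *hsph1*, the heat-inducible HSP110, had 3.55, 2.67 and 3.26 CPM in *prpf31*-/- libraries, against 1.70, 1.17 and 2.56 CPM in siblings (0.80, SE 0.301, adjusted p = 0.130). The values for *hspa4l* (0.43, SE 0.144) and *hspa4b* (0.32, SE 0.227) did not pass either.

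Among the small HSPs, 4 of 9 were higher and none was lower, beside 5.58% higher and 4.49% lower among all genes tested. Their median log2 fold change was 0.70. *hspb1* (chromosome 5, 3568016 to 3584815), Hsp27, which guards actin filaments, had 132, 105 and 109 CPM in *prpf31*-/- libraries, against 67.2, 63.0 and 69.6 CPM in siblings (0.79, SE 0.0967, adjusted p = 0.000848). *hspb8*, which works with Bag3 in clearing damaged muscle proteins, had 32.6, 30.2 and 35.2 CPM in *prpf31*-/- libraries, against 20.5, 20.8 and 19.8 CPM in siblings (0.68, SE 0.0935, adjusted p = 0.00161). *hspb11* had 36.8, 30.1 and 33.5 CPM in *prpf31*-/- libraries, against 20.1, 23.1 and 18.8 CPM in siblings (0.70, SE 0.113, adjusted p = 0.00442). For all 3 of these the mutant libraries lay wholly above the sibling libraries, as they did for 15.2% of all genes tested. *hspb9* was low, with 2.91, 2.10 and 2.28 CPM in *prpf31*-/- libraries, against 0.698, 1.35 and 0.944 CPM in siblings (1.28, SE 0.314, adjusted p = 0.0307), and leaving out *prpf31*-/- replicate 1 or 3 or sibling replicate 1 or 3 raised its adjusted p to between 0.0703 and 0.115, and leaving out replicate 1 of the mutants with replicate 3 of the siblings raised it to 0.133. *hspb2* (0.41, SE 0.213) and *hspb3* (0.81, SE 0.404), known from mammalian muscle, *hspb6* (−0.31, SE 0.128), the heart gene *hspb7* (−0.04, SE 0.222) and *hspb15* (1.00, SE 0.488) did not pass the test. Of these, *hspb3* and *hspb6*, which differed in direction, did not overlap between groups, as 30.6% of all genes tested did not.

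The 3 mitochondrial chaperones of the naming rule were all higher, beside 5.58% of all genes tested. *hspd1* encodes Hsp60 and *hspe1* Hsp10, the wall and the lid of the folding chamber. *hspd1* had 362, 335 and 346 CPM in *prpf31*-/- libraries, against 270, 267 and 277 CPM in siblings (0.36, SE 0.0685, adjusted p = 0.00979). *hspe1* had 169.7, 130 and 144 CPM in *prpf31*-/- libraries, against 87.2, 95.5 and 105 CPM in siblings (0.63, SE 0.108, adjusted p = 0.00618). The genes face away from each other on chromosome 9, *hspd1* from 32286605 to 32300783 on the minus strand and *hspe1* from 32301017 to 32305007 on the plus strand, with 233 bp between them. *hspe1* had 0.468, 0.388 and 0.417 counts per count of *hspd1* in *prpf31*-/- libraries, against 0.323, 0.358 and 0.379 in siblings. This ratio of RNA counts was higher in each mutant library than in every sibling library, by a thin margin at 0.388 against 0.379. The proteins were not measured. With *hspa9*, the 3 genes summed to 775 ± 51.6 CPM in *prpf31*-/- libraries and 564.5 ± 5.88 CPM in siblings (SD, n = 3 each). The call of *hspd1* was lost without *prpf31*-/- replicate 3 (adjusted p = 0.0588) or without sibling replicate 2 (adjusted p = 0.0594). The share of counts from genes that mitochondrial DNA encodes was 5.62%, 4.78% and 5.12% in *prpf31*-/- libraries, against 4.19%, 4.35% and 4.27% in siblings, and its part in the chaperone values was not tested.

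In the ER the genes that passed were the collagen chaperones. *serpinh1b* (chromosome 15, 29382454 to 29388012) and *serpinh1a* (chromosome 10, 38512270 to 38521710) encode Hsp47, which binds the procollagen helix on its way out of the ER. *serpinh1b* had 472, 365 and 390 CPM in *prpf31*-/- libraries, against 244, 249.6 and 225 CPM in siblings (0.77, SE 0.101, adjusted p = 0.00126). *serpinh1a* had 204, 149.9 and 167 CPM in *prpf31*-/- libraries, against 123, 136 and 125 CPM in siblings (0.44, SE 0.109, adjusted p = 0.0314). For both paralogs the *prpf31*-/- libraries lay wholly above the siblings, as they did for 15.2% of all genes tested. The call of *serpinh1a* was lost without *prpf31*-/- replicate 3 or any 1 of the siblings, with an adjusted p of 0.0672 to 0.126, and without *prpf31*-/- replicate 1 and sibling replicate 3 together (0.28, adjusted p = 0.0787). *serpinh1b* kept its call without any single library. *serpinh1b* had 2.32, 2.44 and 2.33 counts per count of *serpinh1a* in *prpf31*-/- libraries, against at most 1.99 in siblings, and 1.65, 1.33 and 1.49 per count of *hspa5*, against 0.845, 0.941 and 0.817 in siblings. Without the collagen chaperones the ER genes summed to 387.9 ± 16.7 CPM in *prpf31*-/- libraries and 397.0 ± 8.21 CPM in siblings (SD, n = 3 each). Notochord genes, from a tissue rich in collagen, summed to 1214 to 1374 CPM in *prpf31*-/- libraries and to 1354 to 1409 CPM in siblings, and none of the 7 tested passed. *serpinh1b* overlaps *gdpd5b* by 103 bp on the other strand.

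**Figure D4:**
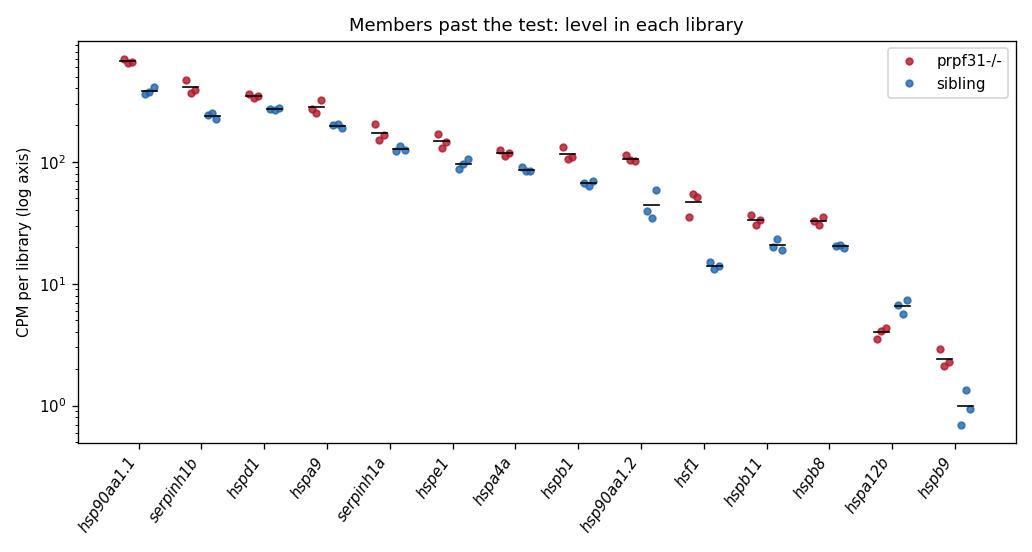
Points give the CPM of each library on a log axis, and bars the group means, for the 14 heat shock genes past the adjusted p of 0.05, with the 3 *prpf31*-/- libraries left of the 3 siblings for each gene. *hspa12b* is the one gene with siblings above. The groups do not overlap in any of the 14, but these were picked by the test on the same libraries, so this is no further support. Over all genes tested, 30.6% were apart.

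The order of the mutant libraries was alike across these genes. Among the 13 that were higher, *prpf31*-/- replicate 1 was the highest of the mutant libraries in 10 and *prpf31*-/- replicate 2 the lowest in 11. Among all 36 tested heat shock genes, these 13 included, *prpf31*-/- replicate 1 was the highest mutant library in 23. This order holds for CPM on the TMM scale and depends on that scaling. As a share of total counts, the 39 genes took 0.520%, 0.524% and 0.531% in *prpf31*-/- replicates 1, 2 and 3, so replicate 1 was lowest. The fast muscle genes, none of which passed, summed to 103000, 87070 and 96800 CPM in *prpf31*-/- replicates 1, 2 and 3. The share over all genes was not determined. *hsf1* ran the other way, with its lowest mutant level in *prpf31*-/- replicate 1. Compared per length, *hsp90ab1* led both groups (415 FPKM in *prpf31*-/- libraries and 470 FPKM in siblings), and *hsp90aa1.1* was next (237 FPKM in *prpf31*-/- libraries and 135 FPKM in siblings). *hsf1* ranked 15 of the 39 in *prpf31*-/- libraries with 11.6 FPKM, against 25 in siblings with 3.45 FPKM.

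Of the genes that bind heat shock proteins or their factors, *hspbp1*, an exchange factor of HSP70, was at 0.35 (SE 0.136, adjusted p = 0.139). *hspbap1*, which binds Hsp27, had 0.886, 1.14 and 1.07 CPM in *prpf31*-/- libraries, against 2.23, 2.20 and 1.71 CPM in siblings. Its log2 fold change of −0.98 (SE 0.278, adjusted p = 0.0532) lay just outside the threshold.

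Partner genes outside the naming rule were read from lists. Of 18 HSP90 partners tested, 7 were higher and none was lower, beside 5.58% higher and 4.49% lower among all genes tested. Their median log2 fold change was 0.29. The myosin chaperone *unc45b* was at 0.48 (adjusted p = 0.00225), the ATPase activator *ahsa1a* at 0.57 (adjusted p = 0.00515) and *stip1*, which links HSP70 to HSP90, at 0.39 (adjusted p = 0.0107). That count of higher partners depends on single libraries: it was 2 without *prpf31*-/- replicate 3 or without sibling replicate 2, and 4 without sibling replicate 1. In the same fits, genes called higher over all genes fell from 1220 to 600, 705 and 666. Limma with the filter called 5 partners higher at either added constant, and limma with no filter called 4. Over all genes, limma with the filter called 1093 higher at a constant of 1 and 1064 at 0.1, and limma with no filter called 885. Of 6 slow muscle genes tested, 2 were higher, beside 5.58% of all genes tested. The slow muscle list summed to 939, 1004 and 910 CPM in *prpf31*-/- libraries, against 685, 672 and 805 CPM in siblings. The part of muscle makeup in the values of *hsp90aa1.1* and *unc45b* was not tested.

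Of 4 heat-inducible co-chaperones tested, 1 was higher, beside 5.58% of all genes tested. It was *bag3* (0.40, adjusted p = 0.0264), a call lost without *prpf31*-/- replicate 3, sibling replicate 1 or sibling replicate 3. None of 15 genes for ER folding and the unfolded protein response passed edgeR's test, DESeq2 or limma. Among all genes tested, edgeR called 10.1% in either direction, so a list of 15 without a call cannot be read as a result. Their median log2 fold change was −0.05. By edgeR, 2 had an unadjusted p under 0.05, a level whose share over all genes was not determined. Of 11 genes for mitochondrial protein quality, 3 were higher, beside 5.58% of all genes tested. They were *grpel1* (0.30, adjusted p = 0.0257), *timm44* (0.32, adjusted p = 0.0351) and *clpp* (0.31, adjusted p = 0.0396). None passed without any 1 library other than *prpf31*-/- replicate 2. Genes of that list that did not pass went in both directions, among them *trap1* (0.27, adjusted p = 0.0951) and *clpb* (−0.59, adjusted p = 0.104). The HSF binding list (2 tested) and the alpha crystallins (1 tested) had no gene past the threshold.

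**Figure D5:**
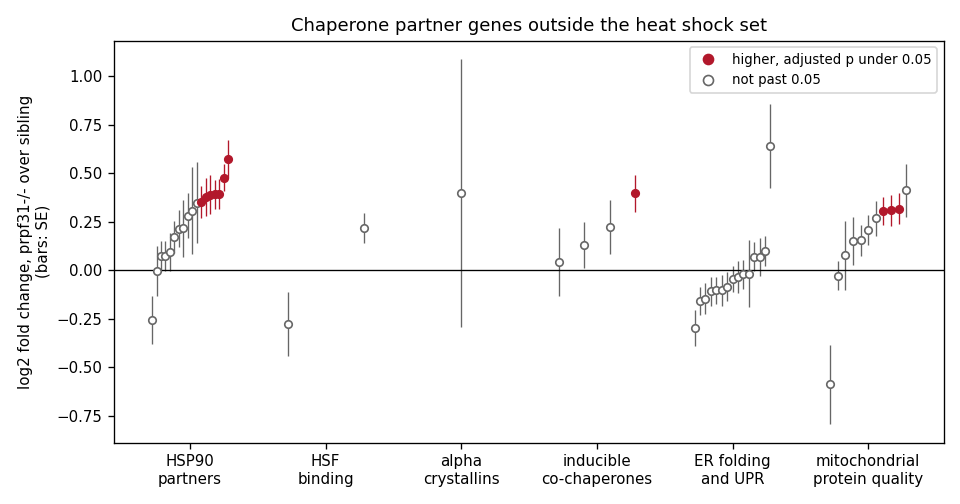
Each point is the log2 fold change of 1 partner gene, *prpf31*-/- over sibling, with its SE, by list, and filled points passed an adjusted p of 0.05. Filled points are 7 of 18 HSP90 partners, 1 of 4 inducible co-chaperones, 3 of 11 mitochondrial genes and 0 of 15 ER genes. Among all genes tested, 5.58% were higher.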

How the data were processed

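RNA-seq was done on 3 *prpf31*-/- and 3 sibling libraries of tails (NEBNext Ultra RNA kit, which does not mark strand). Per the labels, the authors used CASAVA 1.8, HISAT2 2.0.5 with GRCz11, and featureCounts 1.5.0-p3. The authors deposited raw counts per gene and FPKM per gene for each library. The deposited FPKM equal counts over gene length and over a constant per library, 0.935 to 1.05 times its count sum. The test was edgeR 4.0.16 under R 4.3.3 on the counts (filterByExpr, TMM, quasi-likelihood test with genotype as the only term), with Benjamini-Hochberg adjustment over 21876 genes and a threshold of 0.05. The biological coefficient of variation was 15.5%. FPKM served for levels between genes. The procedure was tested on simulated data, drawn with the same coefficient of variation for every gene and with 200 genes changed. Real genes differ in their spread, so that test does not bear on the calls given here.

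Every gene of the naming rule may be named, and values per library are given for those past the threshold or at a mean of at least 100 CPM, besides others shown for the comparison. Partner lists give up to 3 genes with the smallest adjusted p, and *trap1* and *clpb* are named besides these. The genes, lists and tests were chosen with earlier results of these data known. The alternatives were DESeq2 1.42.0, RLE factors, no filter, a minimum of 50 counts in 3 libraries, a replicate block, limma 3.58.1 on log2(FPKM + 1) and log2(FPKM + 0.1), with and without a filter of FPKM 1 in 3 libraries, a log2 fold change minimum of 1 in size, and leaving out each library. Leaving out *prpf31*-/- replicate 1 and sibling replicate 3 together was added after the data were seen. Differential splicing was not analysed here, and no nucleotide or protein sequence was used.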

Additional observations from a re-analysis of the deposited data

How the results depend on the processing

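Of the 14 called heat shock genes, 10 kept their call in every alternative but the minimum fold change; *hspa12b*, *hspd1*, *serpinh1a* and *hspb9* did not. *prpf31* kept its call and direction in all 15 alternatives other than the minimum fold change, which it does not reach at −0.66 on the log2 scale. The count of higher heat shock genes was 10 to 13 without 1 library and 3 (*hsf1*, *hsp90aa1.2* and *hspb9*) when a change of 1 or more on the log2 scale was also required, and that minimum gave 2 cytosolic, 0 ER and 0 mitochondrial genes higher and 0 lower. The count of lower heat shock genes was 0 without any 1 library, under limma on log2(FPKM + 1) with no filter and without *prpf31*-/- replicate 1 and sibling replicate 3 together. ER genes higher numbered 1 under all 3 limma settings, 1 to 2 without 1 library and 1 without those libraries together. Over all genes, 1220 were higher and 983 lower, against 600 to 1215 and 332 to 990 without 1 library, 368 and 244 at the minimum fold, and 537 lower under limma with no filter. The cause of these shifts was not tested.

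The replicate numbers did not pair the libraries (correlations of same-numbered deviations of −0.0735, −0.121 and −0.0414). With the replicate block, 698 genes were higher and 455 lower over all genes, 10 heat shock genes were higher and 0 lower, 1 ER gene was higher, 3 HSP90 partners, 0 mitochondrial quality genes and 0 inducible co-chaperones were higher (7, 3 and 1 without it), *hsp70.1* was at 0.281, *hsp70.2* at 0.0745 and *hspa13* at 0.00512.

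Genes not called changed sign as follows. Without 1 library, the log2 fold change ran from −0.59 to 1.202 for *hsp70.1*, −0.48 to 0.67 for *hsp70.2*, −1.91 to 1.21 for *hsp70l*, −0.26 to 0.26 for *hspa12a*, −0.12 to 0.0658 for *hspa13*, −0.0673 to 0.85 for *hspa14*, −0.0506 to 0.0204 for *hspa5*, −0.0369 to 0.16 for *hspa8*, −0.0626 to 0.0274 for *hsf2* and −0.27 to 0.16 for *hspb7*. Under limma on log2(FPKM + 1), with and without the filter, *hsp70.1* was at 0.13, *hsp70.2* at 0.0355 and *hspa13* at 0.00758, and on log2(FPKM + 0.1) they were at 0.26, 0.0756 and 0.0105. *hspa13* was at 0.0016 under DESeq2 and 0.0036 with RLE factors. Without both named libraries, *hsp70.1* was at 0.69, *hsp70.2* at 0.42, *hspa12a* at 0.47, *hspa13* at 0.0717 and *hspa8* at −0.14. The depth limits genes under about 1 CPM, such as *hspa14* and *hspb15*.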
